A study of Mus musculus with 39 samples.

Results

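Remote left ventricular myocardium, taken 8 weeks after permanent closure of a coronary artery, was compared with the same tissue of sham-operated hearts across all genes. The comparison used 8 of the 39 RNA sequencing libraries of the series, which were chosen by their labels alone. All of these mice were male wild type C57BL6/J mice operated at 12 weeks of age. In the 4 infarcted hearts the left anterior descending artery had been tied for good, and the hearts were taken at 20 weeks of age. The 4 shams had the operation without the closure, 2 of them taken 3 days later at 12 weeks of age and 2 taken 8 weeks later at 20 weeks of age. They entered as 1 group, so that 2 of the 4 controls match the infarcted hearts in age and time after surgery. The tissue was cut away from the infarct, per the labels, which give each library an identifier of its own but state neither which animal it came from nor infarct size, and each is called a heart here. For a comparison of late with early injury, 4 hearts taken 3 days after ischemia-reperfusion at 12 weeks of age were used, in which the same artery was closed for a time and reopened. The 8 libraries held between 9.4 M and 14.1 M counts each. The rest of the series holds hearts with a mutation of Pln, which were left out of the comparisons here.

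After an infarct the dead muscle is replaced by a collagen scar, and the muscle away from it carries the load that the lost muscle no longer bears. Over weeks this remote myocardium is known to enlarge, to switch on genes of the fetal heart such as those of the natriuretic peptides, to lay down matrix between its muscle cells and to lower genes of mitochondrial fuel use. The matrix is made by resident fibroblasts, which take up an activated state under the growth factor TGF-beta and under stretch. All levels below are in CPM, the count of a gene scaled to its library's total. Fold changes are on the log2 scale with their standard error, and p-values come from edgeR's quasi-likelihood test with Benjamini-Hochberg adjustment over all genes tested. A gene is said to have risen or fallen where its adjusted p was under 0.05. Values of the infarcted hearts follow their replicate numbers, and those of the shams give the 12-week pair before the 20-week pair.

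Markers of the labelled tissue were present in all 8 libraries. Myl2, the ventricular regulatory myosin light chain, read 6829, 5579.9, 7202 and 7389.6 CPM after infarction and 7467, 8897, 8214 and 8427 CPM in the shams. Markers of atrial muscle varied between libraries of both groups. Myl7, the atrial regulatory light chain, read 169, 218, 133 and 2.56 CPM after infarction and 118, 14.1, 78.9 and 11.7 CPM in the shams. Infarcted heart 4 thus held the lowest level of Myl7 of all 8 hearts, while the other 3 infarcted hearts held the highest. A sham of 12 weeks stood apart in Myh7, the slow myosin heavy chain, which read 276, 8452, 877 and 418 CPM in the shams. Counts on mitochondrially encoded genes took 18.4% to 22.8% of the infarcted libraries and 23.1% to 26% of the sham libraries, without overlap. In bulk tissue fewer cells of a type and less RNA per cell cannot be told apart, which holds for every result below.

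Remote muscle of infarcted hearts differed from sham muscle mainly in genes that rose, among them Nppa, the gene of atrial natriuretic peptide, and many genes of extracellular matrix. Genes of fatty acid oxidation, of the TCA cycle and of potassium channels fell by smaller amounts. Of 13611 genes tested, 1550 passed (11.4%), 901 higher (6.62%) and 649 lower (4.77%) after infarction. Each list count of infarction against sham below is to be set beside these shares. More rises than falls were large, as 328 of those higher and 75 of those lower differed by over 1 in log2 units. The edgeR count was 3656 genes at an unadjusted p under 0.05. Where libraries were scaled by their totals in place of TMM, the median over all genes went from 0 to 0.11, and 1406 genes were higher and 317 lower. Levels of 2379 genes did not overlap between the groups (17.5%), and 1251 of these also passed the test. The plot of all genes shows the rises reaching further from zero than the falls at most levels of expression.

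**Figure D1:**
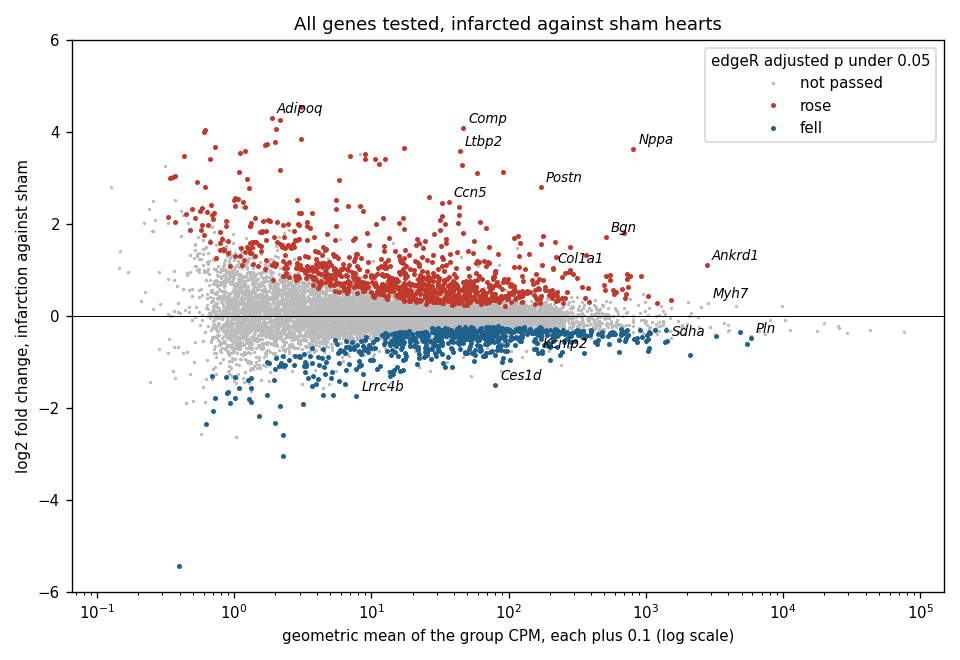
Log2 fold change of infarcted against sham hearts (vertical axis) against the geometric mean of the group levels in CPM, each plus 0.1 (horizontal log axis), for each of the 13611 genes tested. Red points are the 901 genes that rose, blue points the 649 that fell and grey points those that did not pass, and 328 of the rises but 75 of the falls lie beyond 1.

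The infarcted hearts were not alike in how far they stood from the shams. On the first principal component of the 8 libraries, which held 42.8% of the variance, infarcted hearts 1 to 4 lay at -28.6, -43, -21.4 and -9.8 and the shams between 15.7 and 39. Heart 2 was the highest of the 4 infarcted hearts in 661 of the 901 genes that rose (73.4%) and the lowest in 473 of the 649 that fell (72.9%). Heart 4 was the lowest in 521 of those that rose (57.8%). Among the 12061 genes that did not pass, heart 2 was the highest in 27.1% and heart 4 in 26.9%. The median log2 difference from the sham mean over the genes that rose was 0.73, 0.97, 0.64 and 0.53 in hearts 1 to 4. Without infarcted heart 2 the count of passing genes was 663, without heart 1 it was 957 and without the sham of 20 weeks numbered 1 it was 789.

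Fetal and stress genes were higher after infarction. Of 17 tested, 8 were higher and none lower, the median being 1.10 against 0 over all genes. Nppa, Myl4 and Myl7 of this list are also among the atrial markers given below, and of these only Nppa passed. Nppa, whose peptide product lowers blood pressure and is released by stretched muscle, read 2695, 4819, 2284 and 2084 CPM after infarction and 338, 202, 146 and 199 CPM in the shams. The lowest infarcted heart held several times the level of the highest sham, and heart 2 was the highest. Nppa rose 12.4-fold, by 3.63 ± 0.30 (edgeR adjusted p = 2.85e-05). The gene (ENSMUSG00000041616) spans 148000722 to 148002079 on chromosome 4 of GRCm38, plus strand, and an exon of the predicted gene Gm13054 overlaps it on the other strand. Nppb, the gene of B-type natriuretic peptide beside it, on chromosome 4 from 147985788 to 147987205, read 605, 922, 504 and 411 CPM and in the shams 117, 292, 224 and 254 CPM. Its groups did not overlap, the change was 1.33 ± 0.28 (edgeR adjusted p = 0.00794), and the call ended against the 20-week shams alone (adjusted p = 0.0681).

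Skeletal alpha actin, encoded by Acta1 and made by the fetal heart, read 1147, 2104, 1139 and 1019.6 CPM after infarction and 534, 219, 172 and 512 CPM in the shams. Heart 2 stood well above the other 3 infarcted hearts, and all 4 exceeded every sham. Acta1, on the minus strand of chromosome 8 from 123891769 to 123894751, rose by 1.80 ± 0.36 (edgeR adjusted p = 0.00555), a call lost against the 12-week shams alone (adjusted p = 0.0555). Ankrd1, a load-sensitive protein of sarcomere and nucleus on chromosome 19 from 36111961 to 36120099, read 3869, 6192, 3568 and 3475 CPM and in the shams 1426, 2688, 1797 and 1415 CPM, without overlap, a change of 1.11 ± 0.20 (edgeR adjusted p = 0.00331). Xirp2, an actin-binding protein of the intercalated disc, rose by 0.92 ± 0.16 (edgeR adjusted p = 0.00305). Sprr1a, a small proline-rich protein that heart muscle makes under load, read 13.2, 8.67, 3.98 and 9.56 CPM after infarction and 0.538, 0.693, 0.213 and 0.226 CPM in the shams. It was close to absent in the shams and rose by 4.27 ± 0.59 (edgeR adjusted p = 0.000586). Ccn2, a connective tissue growth factor, and Rcan1, a regulator and target of calcineurin, completed the 8, at 1.62 and 1.75.

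The myosin heavy chains, whose shift from the fast to the slow form is a textbook mark of load in rodents, did not pass the test. Myh7 read 3486, 4367, 2657 and 2443 CPM in the infarcted hearts, all above 3 of the shams and below the 12-week sham 2. The change over all 4 shams was 0.29 ± 0.79 (edgeR adjusted p = 0.855). Without that sham it was 2.47 (edgeR adjusted p = 0.0113), and without the 12-week sham 1 or the 20-week sham 2 it was -0.09 and -0.06. Myh6, the fast chain of the adult mouse heart, read 19266, 17589, 20220.4 and 21297 CPM and in the shams 24323, 13099.9, 21530.3 and 22205 CPM, with overlap and a change of -0.16 ± 0.20 (edgeR adjusted p = 0.66). These genes are neighbours of similar sequence, so that their reads can be split by the counting. The plot of CPM by heart shows these genes together with matrix and metabolic ones.

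**Figure D2:**
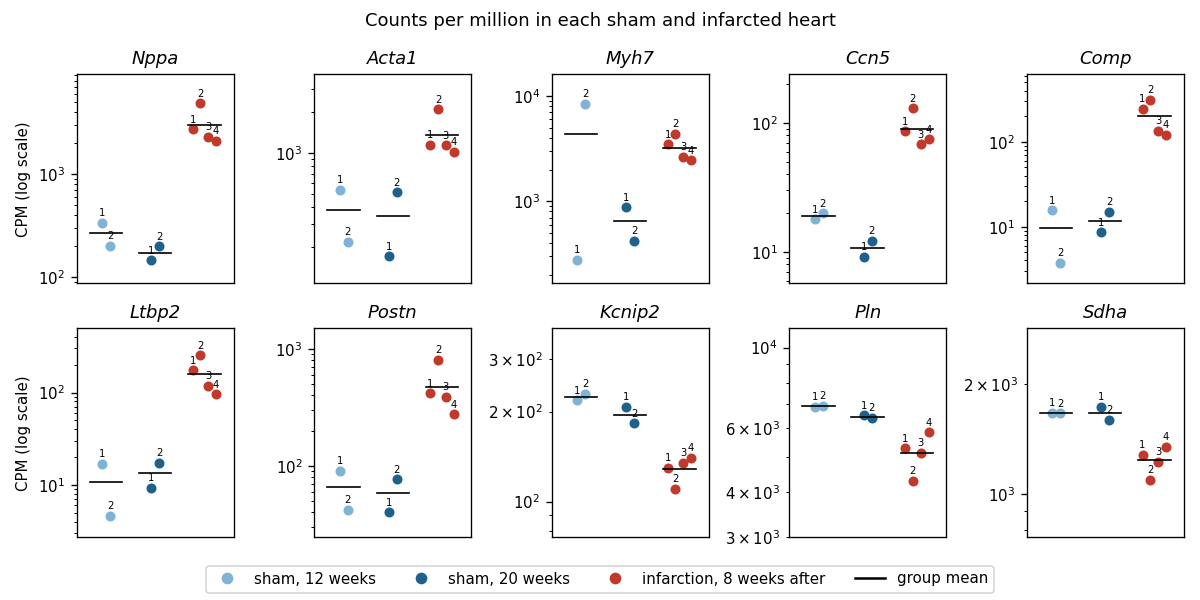
CPM (log axis) in each heart, as points numbered by replicate for shams of 12 weeks, shams of 20 weeks and infarcted hearts, with bars at the group means, for 10 genes. The 4 infarcted hearts lie above every sham in Nppa, Acta1, Ccn5, Comp, Ltbp2 and Postn and below every sham in Kcnip2, Pln and Sdha, while in Myh7 a sham of 12 weeks at 8452 CPM lies above all.

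Promoter sequence is shown for 2 genes of the fixed markers that rose by more than 2 on the log2 scale and whose RefSeq start lies within 2 bases of the annotated gene start, so that a stress gene of muscle and a gene of fibroblasts can be set side by side. Each is the 250 bases before the start, 5′ to 3′ on the gene strand, from RefSeq (GRCm38.p6), and capitals mark GATAA and TGAAGTG on either strand and TATAAA on the gene strand, the letters bound by GATA factors, by Nkx2-5 and by the TATA-binding protein. The stretch of Nppa is chr4:148000472-148000721 and that of Postn chr3:54360857-54361106, both on the plus strand.
Nppa: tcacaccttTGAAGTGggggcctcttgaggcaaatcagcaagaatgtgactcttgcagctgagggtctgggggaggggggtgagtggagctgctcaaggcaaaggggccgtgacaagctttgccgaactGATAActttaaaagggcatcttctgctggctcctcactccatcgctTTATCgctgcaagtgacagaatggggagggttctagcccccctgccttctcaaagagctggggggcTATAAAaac
Postn: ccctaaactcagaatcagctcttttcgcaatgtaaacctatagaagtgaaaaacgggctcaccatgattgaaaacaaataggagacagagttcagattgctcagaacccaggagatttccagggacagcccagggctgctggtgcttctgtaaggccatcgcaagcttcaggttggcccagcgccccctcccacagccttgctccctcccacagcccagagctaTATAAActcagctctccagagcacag
The Nppa stretch held GATAA letters at 121 and 75 bases, TGAAGTG at 241 bases and TATAAA at 9 bases before the start. That of Postn held TATAAA at 26 bases before the start and no match to the other 2. GATAA was found in 22.9% of all 27025 promoter stretches of this length, in 14.2% of the 10414 of tested genes, in 13.7% of the 678 of genes that rose and in 14.4% of the 480 of genes that fell. TGAAGTG was found in 3.26%, 2.51%, 3.39% and 1.46% of these, and TATAAA in 8.14%, 4.06%, 6.05% and 4.58%. The motifs were chosen with the genes in view, and a match describes letters only.

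Genes of extracellular matrix rose after infarction and nearly none fell. Of 22 collagen genes 15 rose and none fell (median 0.83), of 30 other matrix and matricellular genes 19 rose and none fell (median 1.04), and of 11 proteoglycan genes 9 rose and none fell (median 1.14). Col1a1, a chain of type I collagen, read 333, 421, 273 and 216 CPM after infarction and 214, 181, 80.8 and 87.1 CPM in the shams. Its groups touched closely, as the lowest infarcted heart stood just above the highest sham, a 12-week one. Col1a1 rose by 1.04 ± 0.31 (edgeR adjusted p = 0.0429). The call was lost without infarcted heart 1, 2 or 3, without either sham of 20 weeks and without the 12-week sham 2 (adjusted p = 0.0886, 0.137, 0.0663, 0.124, 0.103 and 0.0534), and against the 12-week shams alone the change was 0.58 (adjusted p = 0.29). Col3a1, the type III chain, did not pass, with 871, 947, 608 and 477 CPM against 517, 504, 199.5 and 278 CPM and a change of 0.85 ± 0.27 (edgeR adjusted p = 0.0519). It passed against the 20-week shams alone (1.44, adjusted p = 0.00938), without infarcted heart 4 or either 12-week sham (adjusted p between 0.0303 and 0.0452), with scaling by library totals, with no filter on low counts, by limma-voom and when all 39 libraries were fitted together (adjusted p between 0.0129 and 0.043).

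Larger changes were seen in collagens that form little of the fibril mass. Col12a1, which lies along the surface of collagen fibrils, read 42.1, 53, 24.4 and 23.2 CPM after infarction and 4.04, 2.18, 2.45 and 3.39 CPM in the shams, a change of 3.42 ± 0.35 (edgeR adjusted p = 7.35e-05). Col8a2 and Col8a1, the chains of the short-chain type VIII collagen, rose by 3.48 ± 0.39 (edgeR adjusted p = 0.000156) and 2.03 ± 0.29 (edgeR adjusted p = 0.000658). In all 3 genes every infarcted heart exceeded every sham. Members that passed also included chains of types IV, V, VI, XIV, XV and XVI, and those that did not pass lay between 0.08 and 1.78. The count of rising collagens was 8 without infarcted heart 2, 9 without the 20-week sham 1 and 7 against the 12-week shams alone.

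Among matricellular proteins, which sit in the matrix and act on cells, Ccn5 had the smallest p of all genes in the 3 matrix lists. Ccn5 (chromosome 2, 163820861 to 163833146) read 85.9, 129.9, 68 and 74.7 CPM and in the shams 17.8, 19.9, 9.15 and 12.2 CPM, and rose by 2.49 ± 0.21 (edgeR adjusted p = 2.85e-05). Ltbp2, a latent TGF-beta binding protein of elastic microfibrils (chromosome 12, 84783212 to 84876532), read 174, 254, 119 and 95.6 CPM after infarction and 17, 4.65, 9.25 and 17.4 CPM in the shams. Each infarcted heart held several times the level of the highest sham, and the change was 3.58 ± 0.42 (edgeR adjusted p = 0.000213). Postn, which encodes periostin, a protein of activated fibroblasts (chromosome 3, 54361109 to 54391037), read 416, 809, 391 and 276 CPM and in the shams 90.5, 41.8, 39.8 and 76.5 CPM, without overlap, and rose 6.98-fold, by 2.80 ± 0.41 (edgeR adjusted p = 0.000761). Thbs4, a thrombospondin of muscle and tendon, rose by 3.28 ± 0.39 (edgeR adjusted p = 0.000242), Mfap5, a microfibril protein, by 2.19 ± 0.28 (edgeR adjusted p = 0.000414), and Fbln5, which helps to assemble elastic fibres, by 1.04 ± 0.11 (edgeR adjusted p = 0.000102). The count of this list was between 15 and 20 in every setting tried.

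Proteoglycans, whose sugar chains space and bind collagen fibrils, rose together. Bgn, biglycan (chromosome X, 73483602 to 73495933), read 987, 1414, 797 and 655 CPM after infarction and 359, 217, 216 and 294 CPM in the shams, with no overlap, and rose by 1.71 ± 0.22 (edgeR adjusted p = 0.000414). Prelp rose by 1.34 ± 0.21 (edgeR adjusted p = 0.00121) and Dcn, decorin, by 0.64 ± 0.11 (edgeR adjusted p = 0.00205). The 2 members that did not pass were Ogn and Podn, at 0.26 and 0.28. Of 19 genes of matrix crosslinking and processing 13 rose and none fell (median 0.63, 7 rising against the 12-week shams alone), led by the lysyl oxidases Loxl3 at 2.13 ± 0.23 (edgeR adjusted p = 0.000136) and Loxl1 at 1.51 ± 0.18 (edgeR adjusted p = 0.000251), which join collagen and elastin chains, and by Pcolce2, an enhancer of procollagen cleavage, at 0.95 ± 0.15 (edgeR adjusted p = 0.0015).

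Genes of matrix breakdown and their inhibitors rose in part. Of 19 proteases and inhibitors 7 rose and 1 fell (median 0.39), and the rises were 4 without infarcted heart 2, without the 20-week sham 1, without the 12-week sham 2 and against either sham pair alone. Mmp2, a gelatinase, rose by 0.81 ± 0.13 (edgeR adjusted p = 0.00145) and Mmp23 by 1.22 ± 0.15 (edgeR adjusted p = 0.00032), while the inhibitor Timp2 rose by 0.81 ± 0.13 (edgeR adjusted p = 0.0015). Timp1, an inhibitor induced by injury, read 13.6, 25.6, 17.5 and 13.7 CPM after infarction and 5.83, 9.8, 1.17 and 2.11 CPM in the shams. The 20-week shams were the lowest, and the change was 1.81 ± 0.41 (edgeR adjusted p = 0.0115), with 1.11 against the 12-week shams alone (adjusted p = 0.0883). Timp4, the inhibitor typical of heart muscle, moved the other way, at 10.8, 6.18, 14.2 and 11.4 CPM against 26.1, 14.3, 30.7 and 15.7 CPM, and fell, at -1.12 ± 0.31 (edgeR adjusted p = 0.0315). That call was lost without infarcted heart 1 or 2, the 12-week sham 1 or the 20-week sham 1 (adjusted p = 0.0724, 0.1, 0.0631 and 0.109).

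Of 26 genes of the TGF-beta and BMP pathway 13 rose and 1 fell (median 0.47). The ligands Tgfb2 and Tgfb3 rose by 1.55 ± 0.19 (edgeR adjusted p = 0.00032) and 1.25 ± 0.19 (edgeR adjusted p = 0.00103), and Tgfb1 by 0.46. Tgfb2 read 40.1, 53.2, 24.2 and 34.2 CPM in infarcted hearts and 11.7, 12.5, 9.78 and 13.5 CPM in shams, so that each infarcted heart held more than the highest sham. Gdf6, a BMP-type ligand, rose from a low level by 3.17 ± 0.48 (edgeR adjusted p = 0.00101). Tgfbi, Skil, Fst, Fstl1, Fstl3, Gdf15, Inhbb and the receptor Tgfbr2 also rose, while the co-receptor Tgfbr3 fell, at -0.39 ± 0.11 (edgeR adjusted p = 0.0378). That call was lost when libraries were scaled by their totals (adjusted p = 0.163), without infarcted heart 2, 3 or 4 and without the 12-week sham 1 or 2 or the 20-week sham 1 (adjusted p between 0.0525 and 0.126). The list count was 7 without infarcted heart 2 and 8 without the 20-week sham 1.

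Many markers of fibroblasts rose with the matrix. Of 14 general fibroblast markers 10 rose and none fell (median 0.57), of 13 markers of activated fibroblasts 8 rose (median 1.88), and of 10 markers of fibroblasts of mature scar 7 rose (median 1.73). Several of these markers are matrix genes counted above, so the lists are not independent. The 4 general markers that did not pass were Pdgfra, Tcf21, Dpep1 and Fap, between -0.44 and 0.5. The 5 activated markers that did not pass, Acta2 among them, lay between -0.49 and 1.71, and the 3 scar markers between -0.4 and 0.48. Pi16, a marker of adventitial fibroblasts, read 228, 275, 175 and 148 CPM and in the shams 70.8, 51.1, 47.4 and 65.3 CPM, and rose by 1.69 ± 0.18 (edgeR adjusted p = 9.32e-05). Comp, a cartilage and tendon protein that marks fibroblasts of mature scar (chromosome 8, 70373558 to 70382066), read 246, 311, 135 and 120.4 CPM after infarction and 15.5, 3.76, 8.61 and 14.9 CPM in the shams. No infarcted heart came near the sham range, and Comp rose 17.1-fold, by 4.09 ± 0.41 (edgeR adjusted p = 7.35e-05). Mgp, matrix Gla protein, rose by 1.49 ± 0.19 (edgeR adjusted p = 0.000336) and Clec11a by 1.96 ± 0.28 (edgeR adjusted p = 0.000711). The summed level of the activated markers ran from 1006 to 2340 CPM after infarction and from 234.5 to 440.5 CPM in the shams. The general fibroblast count was 5 without infarcted heart 2, 5 without the 20-week sham 1 and 3 against the 12-week shams alone.

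The plot of the lists sets these groups beside the others. Matrix, fetal and stress, and cell cycle lists lie to the right, and most lists of stress signalling are centred near zero. Furthest left by median are immediate early genes (-0.77) and clock genes of the Per phase (-0.7), with few calls. Fuel use and respiratory lists lie to the left by less, with more calls.

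**Figure D3:**
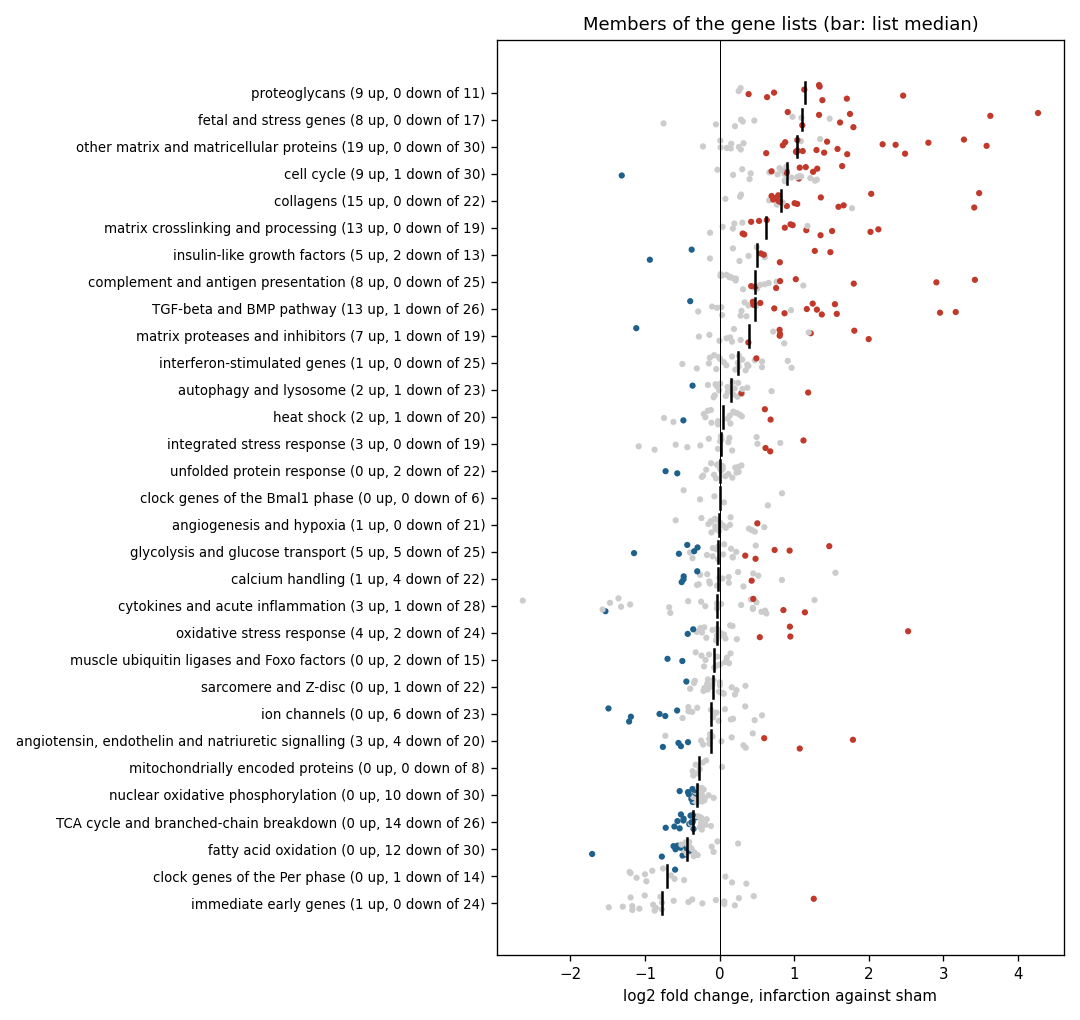
Log2 fold change of infarcted against sham hearts (horizontal axis) for each tested member of 31 lists of genes by function, 1 row a list, with black bars at the list medians. Red points rose, blue points fell and grey points did not pass, with proteoglycans (9 up of 11) at the top and immediate early genes (1 up of 24) at the bottom.

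Calcium handling genes passed in both directions. Of 22 tested, 4 fell, beside 4.77% of all genes, and 1 rose, and the list median was -0.02. The falls were 1 without infarcted heart 2 or the 20-week sham 1, 6 without the 12-week sham 2, 2 against the 20-week shams alone and 0 against the 12-week shams alone. Pln, whose product phospholamban holds back calcium uptake into the sarcoplasmic reticulum, read 5267, 4295, 5115 and 5836 CPM after infarction and 6859, 6899, 6497 and 6403 CPM in the shams. All 4 infarcted hearts were below the lowest sham, and Pln fell, at -0.48 ± 0.11 (edgeR adjusted p = 0.0143), a call lost against either sham pair alone (adjusted p = 0.0517 for the 20-week and 0.0652 for the 12-week pair). The pump gene Atp2a2 did not pass, with 10873, 9552, 10414 and 11094 CPM against 14238, 9038, 11608 and 13106 CPM, overlapping groups and -0.30 ± 0.15 (edgeR adjusted p = 0.2), and passed without the 12-week sham 2 (-0.43, adjusted p = 0.043). Camk2a, a calcium-dependent kinase, fell, at -0.51 ± 0.12 (edgeR adjusted p = 0.0167) and Trdn, which anchors calsequestrin, with -0.30 ± 0.08 (edgeR adjusted p = 0.0263), while Casq2, cardiac calsequestrin itself, rose by 0.43 ± 0.13 (edgeR adjusted p = 0.0436). These calls were weak. That of Camk2a ended without infarcted heart 1 or 2 or the 20-week sham 1 (adjusted p between 0.0541 and 0.0628), that of Trdn without infarcted heart 1, 2 or 3 or the 20-week sham 1 (adjusted p between 0.0543 and 0.0938), and that of Casq2 with any 1 of the infarcted hearts left out or without the 12-week sham 1 or 2 or the 20-week sham 1 (adjusted p between 0.0563 and 0.108). Against the 20-week shams alone Casq2 changed by 0.27 (edgeR adjusted p = 0.295) and Camk2a by -0.51 (edgeR adjusted p = 0.0666). Against the 12-week shams alone the calls of Camk2a (edgeR adjusted p = 0.0782) and Trdn (edgeR adjusted p = 0.17) were lost. Hrc was the other member that fell, at -0.48.

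Ion channel genes of the transient outward potassium current fell. Among 23 tested members of the ion channel list 6 passed, all of them lower, the list median was -0.11, and the count was between 4 and 8 in every setting tried. Kcnip2, the subunit that brings the channel to the membrane (chromosome 19, 45791839 to 45816061), read 129.6, 110.4, 134 and 139.8 CPM after infarction and 218, 229, 208 and 182 CPM in the shams. The groups did not overlap, and Kcnip2 fell, at -0.80 ± 0.11 (edgeR adjusted p = 0.000453). Its pore-forming partners Kcnd2 and Kcnd3 fell as well, Kcnd2 at -1.19 ± 0.18 (edgeR adjusted p = 0.00103) and Kcnd3 at -0.73 ± 0.10 (edgeR adjusted p = 0.000554). Kcnd3 held 13.2, 12.7, 13.9 and 13.1 CPM after infarction and 19.7, 23.3, 18.4 and 20.2 CPM in the shams, with little spread among the infarcted hearts. Kcnv2, a silent potassium channel subunit, fell, at -1.49 ± 0.27 (edgeR adjusted p = 0.0033), Kcnj5, a channel opened by G proteins, with -0.57 and the chloride channel Clcn1 with -1.21. Of 22 sarcomere and Z-disc genes 1 fell, Tnni3, the cardiac troponin I, at -0.44, a share near the 4.77% of all genes lower. None rose, and the other 21 lay between -0.39 and 0.35.

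Genes of mitochondrial fuel use fell by modest amounts, and none of them rose. Of 30 fatty acid oxidation genes 12 fell and none rose (median -0.43), of 30 nuclear genes of oxidative phosphorylation 10 fell and none rose (median -0.30), and of 26 that serve the TCA cycle or break down branched-chain amino acids 14 fell and none rose (median -0.35). Echs1 and Hadh, which carry out successive steps of beta-oxidation, fell, at -0.41 ± 0.09 (edgeR adjusted p = 0.00772) and -0.62 ± 0.13 (edgeR adjusted p = 0.00914). Hadh read 481, 354, 459 and 529.5 CPM after infarction and 578, 646, 757 and 616 CPM in the shams, without overlap. Etfa, which takes electrons from that pathway, fell, at -0.44 ± 0.10 (edgeR adjusted p = 0.0125). Against the 12-week shams alone none of the 12 calls of this list remained, and Hadh changed by -0.48 (adjusted p = 0.0962). The count was 4 without infarcted heart 2 and 3 without the 20-week sham 1.

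Sdha, the catalytic subunit of succinate dehydrogenase, which is shared by the TCA cycle and the respiratory chain (chromosome 13, 74322254 to 74350280), read 1284, 1095, 1225 and 1347 CPM after infarction and 1669.7, 1662, 1731 and 1597 CPM in the shams. The shams lay close together and above every infarcted heart, and Sdha fell, at -0.53 ± 0.09 (edgeR adjusted p = 0.00255). Ndufs1 and Ndufv1 of complex I fell, at -0.41 ± 0.10 (edgeR adjusted p = 0.0133) and -0.42 ± 0.10 (edgeR adjusted p = 0.0179). The call of Ndufv1 ended without infarcted heart 1 or 2 or the 20-week sham 1 (adjusted p between 0.0539 and 0.0659). The count of falling respiratory genes was 5 with scaling by library size, 2 without infarcted heart 2 or without the 20-week sham 1, 16 by DESeq2, 4 against the 20-week shams alone and 1 against the 12-week shams alone. None of 8 mitochondrially encoded genes tested passed, at -0.36 to 0.03, and the other 5 were not tested. In branched-chain amino acid breakdown Bckdhb read 31.7, 24.8, 34.9 and 32.5 CPM and in the shams 48.3, 49.6, 48.9 and 43.8 CPM, a change of -0.72 ± 0.12 (edgeR adjusted p = 0.0018), and Ivd fell, at -0.57 ± 0.10 (edgeR adjusted p = 0.00214). Suclg2, a subunit of the TCA cycle enzyme succinyl-CoA ligase, fell, at -0.52 ± 0.09 (edgeR adjusted p = 0.00205). The TCA list count was 7 without infarcted heart 2, 7 without the 20-week sham 1 and 4 against the 12-week shams alone.

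Glycolysis genes split both ways, with 5 higher and 5 lower of 25 and a median of -0.02. Over all genes 6.62% were higher and 4.77% lower. The split was 9 higher and 3 lower with scaling by library totals, 3 and 3 without infarcted heart 2, 3 and 2 without the 20-week sham 1, and 3 and 0 against the 12-week shams alone. Pfkp, the platelet form of phosphofructokinase, read 111, 152, 97.9 and 101 CPM after infarction and 70, 54.9, 42.3 and 55 CPM in the shams, and rose by 0.94 ± 0.16 (edgeR adjusted p = 0.00207). Eno1, the widely expressed enolase, rose by 0.48 ± 0.09 (edgeR adjusted p = 0.00432), and Hk1, Pgam1 and the lactate exporter Slc16a3 also rose. Ldhb, the heart form of lactate dehydrogenase, fell, at -0.54 ± 0.11 (edgeR adjusted p = 0.00607), as did the insulin-responsive glucose transporter Slc2a4, the muscle forms Pfkm and Pygm, and Pfkfb1. Eno1 has near-identical copies in the mouse genome, so its level is uncertain.

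Responses to misfolded protein and to amino acid shortage gave passing genes at a share near that of all genes (11.4%). Of 22 genes of the unfolded protein response none rose and 2 fell, Dnajb9 and Herpud1 (median 0.01), and of 19 of the integrated stress response 3 rose, Aldh18a1 at 0.68 ± 0.15 (edgeR adjusted p = 0.00999), Atf5 at 0.62 ± 0.17 (edgeR adjusted p = 0.0318) and Pycr1 at 1.13 ± 0.30 (edgeR adjusted p = 0.026). The call of Atf5 ended without infarcted heart 2 or 3, the 12-week sham 1 or 2 or the 20-week sham 1 (adjusted p between 0.0511 and 0.116), and that of Pycr1 without infarcted heart 2, either 20-week sham or the 12-week sham 2 (adjusted p between 0.0508 and 0.1). In the oxidative stress list 4 of 24 rose and 2 fell, beside 6.62% of all genes higher and 4.77% lower. Nox4, a NADPH oxidase that makes hydrogen peroxide (chromosome 7, 87246096 to 87398710), read 14.5, 17.7, 10.5 and 11.7 CPM after infarction and 1.97, 1.88, 1.81 and 2.86 CPM in the shams. All infarcted hearts stood far above the shams, and Nox4 rose 5.78-fold, by 2.53 ± 0.23 (edgeR adjusted p = 3.34e-05). Sod3, the superoxide dismutase of the matrix, rose by 0.94 ± 0.15 (edgeR adjusted p = 0.00118) and Gpx3, a secreted glutathione peroxidase, by 0.95 ± 0.20 (edgeR adjusted p = 0.00854), while Prdx3, a mitochondrial peroxiredoxin, fell, at -0.35 ± 0.09 (edgeR adjusted p = 0.0188). Of 20 heat shock genes 2 rose, Hsp90aa1 by 0.68 ± 0.13 (edgeR adjusted p = 0.00371) and Hsph1 by 0.61 ± 0.17 (edgeR adjusted p = 0.0326), and Dnajb5 fell. The call of Prdx3 ended without infarcted heart 2 or the 20-week sham 1 (adjusted p = 0.0669 and 0.0579), and that of Hsph1 without infarcted heart 1, 2 or 4, the 20-week sham 1 or the 12-week sham 2 (adjusted p between 0.0565 and 0.0938). Of 24 immediate early genes 1 rose, Maff, with a list median of -0.77, and of the clock genes none of 6 of the Bmal1 phase and 1 of 14 of the Per phase, Tsc22d3, passed. Clock and immediate early genes move with the hour and with handling of tissue, and the hour at which hearts were taken is not given in the labels.

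Cell cycle genes were higher from a low level. Of 30 tested, 9 rose and 1 fell, with a median of 0.90, and the 30 genes summed to between 158 and 182 CPM after infarction and 97.4 and 144 CPM in the shams. Mcm2, of the helicase that licenses replication, read 17.7, 17.4, 17.3 and 19.3 CPM after infarction and 10.2, 6.24, 8.83 and 10.1 CPM in the shams, without overlap, and rose by 0.90 ± 0.17 (edgeR adjusted p = 0.00378). Mcm5 rose by 1.26 ± 0.24 (edgeR adjusted p = 0.00505), while Cenpf, a kinetochore protein, fell, at -1.31 ± 0.28 (edgeR adjusted p = 0.00823). The count of rising genes was 15 by DESeq2, 4 by limma-voom, 5 without infarcted heart 2, 4 without the 20-week sham 1 or the 12-week sham 2 and 3 against either sham pair alone.

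Cytokine genes passed at a share near that of all genes (11.4%), and several complement genes rose. Of 28 cytokine and acute inflammation genes 3 rose and 1 fell (median -0.03). Those that rose were Ccl21a, a chemokine of lymphatic vessels with near-identical copies, at 1.15 ± 0.20 (edgeR adjusted p = 0.00274), Cx3cl1, fractalkine, at 0.86 ± 0.18 (edgeR adjusted p = 0.00664), and Stat3 at 0.45 ± 0.10 (edgeR adjusted p = 0.0098). Ccl7 fell, at -1.53 ± 0.43 (edgeR adjusted p = 0.035), and the call ended without the 12-week sham 2 (-0.88, adjusted p = 0.112) or without infarcted heart 1, 3 or 4 (adjusted p between 0.069 and 0.0912). Against the 20-week shams alone its change was -0.89 (edgeR adjusted p = 0.314). Of 25 interferon-stimulated genes 1 rose, Oasl2, beside 6.62% of all genes higher. Of 25 genes of complement and antigen presentation 8 rose and none fell (median 0.48). The count was 4 without infarcted heart 2 and against the 12-week shams alone, and 5 without the 20-week sham 1. Of these 8, Cfd is also among the white fat markers and C1qb among the macrophage markers given below. C4b rose by 1.80 ± 0.30 (edgeR adjusted p = 0.00178) and the decay factor Cd55 by 0.81 ± 0.15 (edgeR adjusted p = 0.00442), and none of the class I and class II antigen presentation genes passed.

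Hormone and growth factor genes moved in both directions. Ace, angiotensin-converting enzyme, read at least 117 CPM in every infarcted heart and at most 94.3 CPM in every sham, and rose by 1.08 ± 0.20 (edgeR adjusted p = 0.004). Edn3, endothelin 3, rose by 1.79 ± 0.35 (edgeR adjusted p = 0.00482), with the endothelin receptor Ednrb, while the receptors Agtr1a, Adra1a and Adra1b and the natriuretic peptide convertase Corin fell, Adra1a with -0.76 ± 0.17 (edgeR adjusted p = 0.0112). In the list of angiotensin, endothelin and natriuretic signalling 3 of 20 rose and 4 fell, beside 6.62% of all genes higher and 4.77% lower. The 4 falls were 1 without infarcted heart 2 or the 20-week sham 1. Of 13 genes of insulin-like growth factors 5 rose and 2 fell, beside the same shares of all genes. The binding proteins Igfbp6 and Igfbp7 rose by 1.49 ± 0.18 (edgeR adjusted p = 0.000297) and 1.28 ± 0.18 (edgeR adjusted p = 0.000595), and Igf2, the fetal growth factor, read 9.95, 11.6, 15.8 and 15.1 CPM after infarction and 27.4, 27, 16.9 and 22.7 CPM in the shams and fell, at -0.94 ± 0.17 (edgeR adjusted p = 0.00339). Each infarcted heart was below each sham, the nearest pair being close. Autophagy and lysosome genes passed at a share near that of all genes (11.4%), with 2 rises and 1 fall of 23. Among them Ctsk, a collagen-cutting cathepsin, was at 1.19 ± 0.20 (edgeR adjusted p = 0.00189). Of 15 muscle ubiquitin ligases and Foxo factors 2 fell, Foxo3 and Klf15, beside 4.77% of all genes lower. Of 21 angiogenesis and hypoxia genes 1 rose, Hif1a, beside 6.62% of all genes higher.

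Markers of other cells of the heart are given here beside the changes they move with. Over all genes 6.62% rose and 4.77% fell. Endothelial markers had a median of -0.04 with 1 of 14 lower (Rgcc), and ventricular muscle markers a median of -0.18 with 2 of 12 lower. Of 6 lymphatic markers tested 3 rose, Flt4, Pdpn and Ccl21a, while Prox1, Lyve1 and Reln did not pass (-0.35 to 0.66). Flt4, the receptor of VEGF-C, was at 45, 47.3, 40 and 37.6 CPM against 26.6, 26.2, 24.1 and 23.3 CPM, a change of 0.65 ± 0.07 (edgeR adjusted p = 0.000189). The call of Pdpn ended without infarcted heart 1 or 2 or the 20-week sham 1 (edgeR adjusted p between 0.0549 and 0.063). It also ended against the 12-week shams alone (edgeR adjusted p = 0.16). Of 16 macrophage markers 3 rose, C1qb, Lyz2 and Tyrobp, and of 8 markers of resident macrophages 3 rose, Folr2, F13a1 and Gas6, at 0.40 to 0.76. Against the 20-week shams alone 10 of the 16 macrophage markers rose, by DESeq2 8 and against the 12-week shams alone 0, and the summed level of the 16 was 608 to 928 CPM after infarction, 516 to 625 CPM in the 12-week shams and 355.8 to 392.1 CPM in the 20-week shams. Of 10 markers of recruited macrophages 2 rose, Spp1 and Lgals3 (median 1.10), and the 10 summed to between 68.85 and 92.6 CPM after infarction and between 33.8 and 56.1 CPM in the shams, without overlap. The 6 calls of C1qb to Gas6 ended without infarcted heart 2 (adjusted p between 0.0634 and 0.157), all but that of C1qb without the 20-week sham 1 or 2 (adjusted p between 0.0559 and 0.116), and some also without infarcted heart 1 (Lyz2), infarcted heart 3 (Lyz2, Tyrobp, Folr2) or the 12-week sham 2 (Lyz2, Folr2), at adjusted p between 0.0551 and 0.0828. Neutrophil markers gave no call among 6 tested, markers of lung epithelium summed to at most 5.81 CPM, and of 13 markers of T and NK cells 12 were too low to test. Ppbp, a platelet chemokine, read 0.935, 0.922, 1.14 and 0.597 CPM after infarction and 5.92, 1.68, 7.13 and 5.42 CPM in the shams and fell, at -2.58 ± 0.58 (edgeR adjusted p = 0.0113), while Pf4, the other platelet chemokine of the list, was at 0.14 and did not pass. Gp9, a platelet receptor subunit at 1.17, 0.297, 2.55 and 0.979 CPM in the shams, had 1 read in the infarcted libraries.

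Atrial, fat cell and antibody genes differed between individual infarcted hearts. The summed level of 10 atrial markers, Nppa among them, ran from 3036 to 7740 CPM after infarction and from 915 to 1520 CPM in the shams. Of 9 tested 3 rose, Nppa, Pam by 0.86 ± 0.17 (edgeR adjusted p = 0.00605) and Dkk3 by 2.03 ± 0.48 (edgeR adjusted p = 0.014), the last lost without infarcted heart 2 (adjusted p = 0.0589), and the defining markers Myl7, Myl4 and Sln did not pass. The call of Dkk3 was also lost against the 20-week and the 12-week shams alone (edgeR adjusted p = 0.0632 and 0.104). That of Pam was lost against the 12-week shams alone (edgeR adjusted p = 0.0557). In infarcted heart 4, where Sln had no read and Myl7 stood at 2.56 CPM, Nppa was at 2084 CPM, above every sham, and Comp at 120 CPM. Both levels were the lowest among the infarcted hearts, as heart 4 was in 57.8% of the genes that rose. It also lay nearest the shams on the first principal component, at -9.8. With the Myl7 level of each library as a covariate, added after the data were seen, 1148 genes passed, 1130 of them among the 1550. Of 9 white fat markers 7 were tested and 6 of these rose, while Lep and Retn were too low to test. A marker near 0 in the shams passes the filter on low counts through the hearts where it is high. The share of 6 of 7 is therefore partly set by that filter. Adipoq, adiponectin, was at 9.35, 13.6, 6.96 and 0.939 CPM against 0.807, 0.396, 0.213 and 0 CPM, a change of 4.32 ± 0.78 (edgeR adjusted p = 0.00319). Pck1 rose by 3.86 ± 0.72 (edgeR adjusted p = 0.00383). Infarcted heart 4 was close to the shams in these genes and hearts 1 to 3 were far above, and the 9 markers summed to between 7.42 and 203 CPM after infarction and 3.76 and 22.1 CPM in the shams. By limma-voom with quality weights none of the 6 passed. The count was 2 without infarcted heart 2, without the 20-week sham 1 and against the 12-week shams alone. The antibody genes Jchain, Igkc and Ighm rose by 4.07 ± 0.78 (edgeR adjusted p = 0.00452), 3.52 ± 0.67 (edgeR adjusted p = 0.00439) and 2.59 ± 0.50 (edgeR adjusted p = 0.00446), with Igkc at 68, 10.5, 40 and 5.46 CPM against 1.97, 4.36, 1.49 and 2.18 CPM, highest in hearts 1 and 3. All 3 calls ended against the 12-week shams alone (adjusted p = 0.061, 0.0585 and 0.0539), and those of Jchain and Igkc also by limma-voom (adjusted p = 0.0872 and 0.105). Igkc belongs to a family of similar segments. The part that pieces of atrium, fat or lymphoid tissue have in other genes was not tested beyond that covariate.

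**Figure D4:**
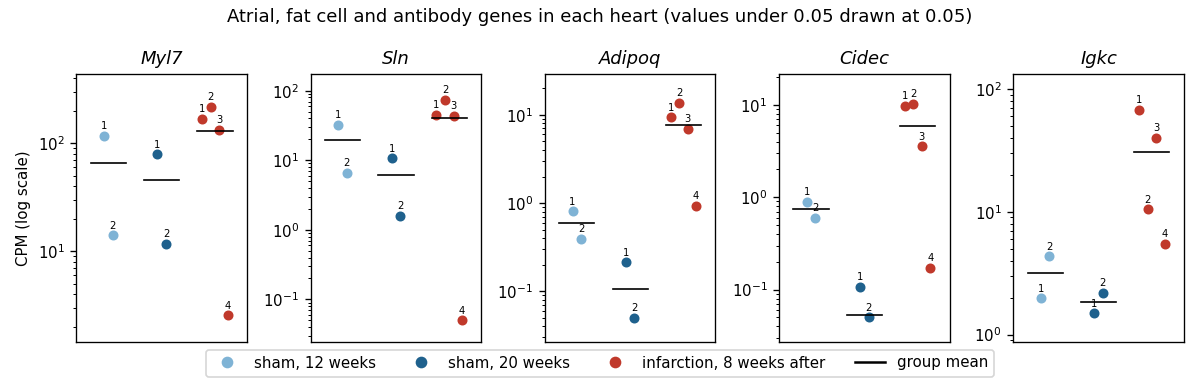
CPM (log axis, values under 0.05 drawn at 0.05) of 2 atrial, 2 fat cell and 1 antibody gene in each heart, with points numbered by replicate and bars at the group means. Infarcted heart 4 lies below every sham in Myl7 and Sln and among the shams in Cidec, whereas infarcted hearts 1 to 3 lie above every sham in all 5 genes.

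The largest rises were also taken irrespective of list. Atp6v0a4, a proton pump subunit that overlaps exons of a neighbouring gene, rose by 3.79 ± 0.64 (edgeR adjusted p = 0.00214), and Sfrp2, a secreted Wnt antagonist, by 3.65 ± 0.33 (edgeR adjusted p = 3.34e-05). Sfrp2 read 88.5, 79.2, 41 and 47.8 CPM and in the shams 5.74, 5.45, 2.02 and 5.27 CPM, so that no infarcted heart was near the shams. Among the 10 largest rises were also Adipoq, Sprr1a, Comp, Jchain, Pck1, Nppa and Ltbp2, described above. Predicted genes were left out of this ranking, and 11 of them met the same limits with a rise of any size.

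Under the same rule, which leaves out genes below 5 CPM in both groups and those whose groups overlap, the 10 largest falls were smaller than the 10 largest rises. After Ppbp came Snai3, a zinc finger factor of the Snail family, with -1.91 ± 0.43 (edgeR adjusted p = 0.0116), Lrrc4b, a synaptic adhesion protein in neurons, with -1.73 ± 0.26 (edgeR adjusted p = 0.00101), and Abca12, a lipid transporter known from skin, with -1.73 ± 0.31 (edgeR adjusted p = 0.00339). Lrrc4b read 4.85, 3.32, 6.32 and 2.82 CPM after infarction and 9.87, 20.3, 11.7 and 12.5 CPM in the shams, and its groups did not overlap. Acot1, a thioesterase of fatty acyl-CoA with a close paralog, fell, at -1.71 ± 0.42 (edgeR adjusted p = 0.017), a call lost without infarcted heart 2 or the 20-week sham 1 (adjusted p = 0.0602 and 0.062). Ces1d, a carboxylesterase that acts on stored fat and has similar family members, read 68.4, 33.2, 52.4 and 44 CPM after infarction and 134, 99.2, 146 and 139 CPM in the shams. No infarcted heart reached the lowest sham, and Ces1d fell, at -1.50 ± 0.22 (edgeR adjusted p = 0.000886). Kcnv2, Stum, Penk, which encodes the opioid precursor proenkephalin, and Rgs7bp completed the 10, at -1.49, -1.47, -1.42 and -1.36.

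Infarcted hearts were then compared directly with hearts taken 3 days after ischemia-reperfusion, which asks where late remote muscle differs from early remote muscle. Those groups differ in time after surgery, in age and in the kind of closure, which cannot be told apart. Of 13611 genes 2730 differed (20.1%), 1203 higher (8.84%) and 1527 lower (11.2%) in the infarcted hearts. Scaled by library totals, the median over all genes was -0.12, with 569 genes higher and 2356 lower. The list counts that follow were made with the main scaling alone. Cell cycle genes were lower at 28 of 30 and cytokine genes at 21 of 28 with 2 higher. Genes of the unfolded protein response were lower at 14 of 22, immediate early genes at 13 of 24, macrophage markers at 15 of 16 and markers of recruited macrophages at 10 of 10. Higher were 9 of 22 sarcomere genes, 8 of 26 in the TCA and branched-chain list and 6 of 11 proteoglycans, with none lower in these 3 lists.

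Matrix genes divided between the times. Comp read 9.74, 7.57, 21.1 and 10.6 CPM after reperfusion, a range that overlaps that of the shams, and was higher in infarcted hearts by 4.14 ± 0.40 (edgeR adjusted p = 1.08e-05). Col8a2 at 3.19 ± 0.37 (edgeR adjusted p = 5.2e-05), Jchain at 3.88 ± 0.72 (edgeR adjusted p = 0.00167), Atp6v0a4 at 3.47 ± 0.59 (edgeR adjusted p = 0.000895) and Dio2, the enzyme that activates thyroid hormone, at 2.84 ± 0.46 (edgeR adjusted p = 0.000597) were the other largest differences upward. Nppa was higher by 2.26 ± 0.28 (edgeR adjusted p = 8.44e-05) and Nox4 by 2.29 ± 0.21 (edgeR adjusted p = 9.6e-06). Atrial markers, Nppa among them, were also higher at 5 of 9 (median 1.88), beside 8.84% of all genes. So were white fat markers at 6 of 7 (median 3.57) and B and plasma cell markers, Jchain among them, at 3 of 8 (median 1.01). None was lower in these lists. Dio2 is on the brown fat list. The part of such tissue in these differences was not tested beyond the Myl7 covariate. Col1a1, by contrast, read 812, 1369.8, 1110.3 and 2283 CPM after reperfusion, above every infarcted heart, a difference of -2.05 ± 0.32 (edgeR adjusted p = 0.000458), and Timp1 read 76.1, 73.5, 145 and 106 CPM, a difference of -2.40 ± 0.34 (edgeR adjusted p = 0.000232). Postn read 205, 833, 442 and 704 CPM after reperfusion, the infarcted hearts within that range, with a difference of -0.10 ± 0.37 (edgeR adjusted p = 0.888). Crosslinking and processing genes were lower at 9 of 19 and higher at 1.

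The largest differences downward were in genes known from myeloid cells and acute inflammation. Chil3, a chitinase-like protein of myeloid cells, read 10.5, 27.9, 5.92 and 9.3 CPM after reperfusion and at most 0.184 CPM in infarcted hearts, a difference of -7.04 ± 0.67 (edgeR adjusted p = 9.64e-06). Spp1, osteopontin, read 267, 527, 222 and 527 CPM after reperfusion and 7.31, 11.1, 7.53 and 4.78 CPM in infarcted hearts, a difference of -5.53 ± 0.34 (edgeR adjusted p = 2.47e-07). Cd300lf, Slfn4 and Saa3 differed by -5.32 ± 0.55 (edgeR adjusted p = 1.71e-05), -5.18 ± 0.42 (edgeR adjusted p = 3.09e-06) and -4.77 ± 0.95 (edgeR adjusted p = 0.0027). In infarcted and sham hearts Chil3, Cd300lf, Slfn4 and Saa3 were under 2 CPM, apart from Saa3 at 7.13 CPM in the 12-week sham 2. None of them passed between those groups. With so few reads that test cannot show whether infarcted and sham levels are alike, and the sizes of the differences from reperfusion are uncertain.

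**Figure D5:**
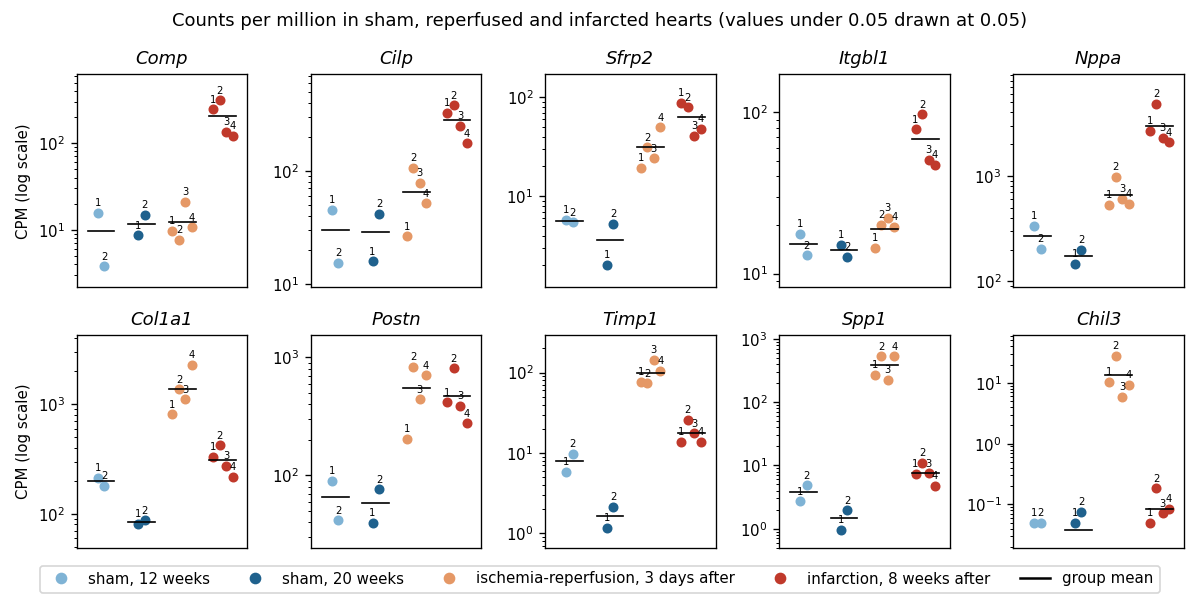
CPM (log axis, values under 0.05 drawn at 0.05) of 10 genes in each sham, reperfused and infarcted heart, with points numbered by replicate and bars at the group means. Comp, Cilp, Itgbl1 and Nppa are highest in the infarcted hearts, while Col1a1, Timp1, Spp1 and Chil3 are highest 3 days after reperfusion and Postn is high in both.

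The pooled shams were compared by age, since the infarcted hearts have only the later age. None of 14168 genes passed between the 2 shams of 20 weeks and the 2 of 12 weeks (0%), with 933 at an unadjusted p under 0.05, and DESeq2 called 3 and limma-voom none. With 2 hearts a side and the spread shared with the other groups, a p that misses the threshold does not show that the ages are alike. Against the 20-week shams alone 853 genes passed, 513 higher and 340 lower after infarction, and against the 12-week shams alone 520, 341 higher and 179 lower. Nppa rose against both, by 3.93 (edgeR adjusted p = 0.000474) and 3.38 (edgeR adjusted p = 0.00126).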

How the data were processed

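Per the labels' protocols, RNA of remote left ventricle was taken up in Trizol and sequenced from TruSeq stranded mRNA libraries. The authors deposited raw counts of reads per gene, and the submitters' processing notes name STAR 2.7.3a, featureCounts of Subread 2.0.0 and mm10. Neither the annotation release nor the strandedness option of featureCounts is given in the sources used here. GENCODE vM21 (GRCm38) gave symbols to 36345 of 38293 IDs, and the rest held at most 0.126% of a library. Of 122 named genes with a position, 35 overlap exons of another gene, 7 on the same strand and 30 on the other, so their levels are uncertain.

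The deposited counts of the 12 wild type surgery libraries (9.4 M to 15.7 M counts each) were fitted together in edgeR 4.0.16 (R 4.3.3) with TMM scaling, filterByExpr and the quasi-likelihood test, with Benjamini-Hochberg adjustment at 0.05. The spread was thus shared by infarcted, sham and reperfused hearts, with the 4 shams as 1 group. Each standard error is the absolute log2 change over the square root of F. CPM values are counts scaled to the library total. None of 14 replicate pairs was identical (chi-square per gene 5.53 to 32.6 over genes with at least 50 counts). The p-values set the difference between groups against the spread among libraries within groups. The labels give each library its own identifier and do not say how identifiers map to animals. Whether that spread is one among animals is therefore not known.

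Members and gene lists (31 by function, 26 by cell type) were chosen with earlier results of these data known. Named genes were 14 chosen markers, the 10 largest rises and falls without overlap and with at least 5 CPM in the higher group (predicted genes, 11 rises and 9 falls, were counted and not named), the 3 smallest p of each list with 3 or more passing genes and 1 gene of the opposite direction, and the 5 largest differences each way from reperfusion. Other passing members, named where a list had few, were chosen after their values were seen. A few genes that the rule names are not reported here. Alternatives were other scalings, filters, control groups and library sets, DESeq2 1.42.0, limma-voom (limma 3.58.1), a replicate block, each library left out and, added later, Myl7 as a covariate. The scripts were tested on simulated data.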

Additional observations from a re-analysis of the deposited data

Results flagged for a closer look

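Single hearts stood apart from the other 3 of their group in 18 of the 244 gene levels examined in groups of 4, where chance gives about 1 in 20. In each case most of the group's range lay between that heart and its nearest neighbour. The 12-week sham 2 held 8450 CPM of Myh7, where the other shams held 276 to 877, 651 CPM of Casq2 (others 907 to 950), 12.8 CPM of Ccl7 (others 2.87 to 4.22) and 0.495 CPM of Cd300lf (others 0). Infarcted heart 2 was highest in Acta1 at 2100 CPM (others 1020 to 1150), Ankrd1 at 6190 CPM (others 3470 to 3870), Pycr1 at 4.52 CPM (others 2.39 to 2.49), Ccl7 at 3.87 CPM (others 1.53 to 1.85) and Ctsd, a lysosomal protease, at 1570 CPM (others 1330). It was lowest in Ivd at 302 CPM (others 374 to 387) and Prdx3 at 205 CPM (others 235 to 238). The 12-week sham 1 was high in Pcolce2 at 23.6 CPM (others 14.6 to 16.1) and in Car3, a carbonic anhydrase of fat and muscle, at 9.78 CPM (others 1.39 to 1.81), and low in Edn3 at 1.26 CPM (others 2.67 to 2.87). The 20-week sham 1 was low in Sfrp2 at 2.02 CPM (others 5.27 to 5.74) and Ctsd at 991 CPM (others 1070 to 1080). The 20-week sham 2 was high in Nox4 at 2.86 CPM (others 1.81 to 1.97) and Chil3 at 0.0753 CPM (others 0).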

How the results depend on the processing

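The 1550 genes that passed between infarcted and sham hearts were 853 against the 20-week shams alone and 520 against the 12-week shams alone. Leaving out 1 library gave 663 (infarcted heart 2) to 1570 (infarcted heart 4), and the other alternatives gave 1148 to 2042. The 2730 genes between infarcted and reperfused hearts were 2137 to 3346 over all alternatives. Between sham ages the count of 0 became 11 with no filter on low counts and 3 by DESeq2, and ran from 0 to 3 with 1 library left out. With the replicate number as a block, 1165 genes passed between infarcted and sham hearts and 2462 between infarcted and reperfused hearts, and 14 of the 112 calls of named genes were lost. The labels do not tie the numbers to a shared animal or day. Deviations of the 6 same-numbered pairs, reperfused hearts left out, correlated at -0.082 to 0.08. The 2 shams of an age deviate in mirror image by construction, so these values are not independent and cannot show whether the numbers share a batch. Of those 112 calls 61 held under every alternative and none changed sign, and 42 were lost against the 12-week shams alone. The change of Myh7, which did not pass with all shams, was -0.5 against the 12-week shams alone, -0.09 without the 12-week sham 1, -0.06 without the 20-week sham 2 and 2.47 without the 12-week sham 2, where it passed, and that of Myh6 was 0.01 against the 12-week shams alone. Of 420 values for the 20 list counts of at least 5, 74 moved by over 1.5 times. Smaller counts were left out of this tally. Some of them moved in no setting, while that of rising macrophage markers moved in 14 of 21. The cause was not tested for any of these. Genes of few counts, such as Gp9 and Chil3, are limited by depth, and 4 hearts a group with 2 ages of sham limit the rest.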

Other observations

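The genes below were chosen after their values were seen, and their p-values are descriptions. Some secreted regulators of Wnt signalling rose. Sfrp1 read 73.4, 119, 52.2 and 45.9 CPM after infarction and 16.7, 15, 11.4 and 15.5 CPM in the shams, without overlap, a change of 2.18 ± 0.25 (edgeR adjusted p = 0.000156). Frzb, another secreted Wnt antagonist, changed by 1.89 ± 0.26 (edgeR adjusted p = 0.000536). Sfrp4 was at 1.93 ± 0.70 (edgeR adjusted p = 0.087), Sfrp5 at -0.70 ± 0.55 (edgeR adjusted p = 0.452) and Wif1 at -0.40 ± 0.28 (edgeR adjusted p = 0.389), none of which passed. The paired ribosomal proteins Rpl3 and Rpl3l, of which the second is the form of striated muscle, moved in opposite directions. Rpl3 read 135, 158, 125 and 114 CPM after infarction and 77.8, 81.6, 70.3 and 81.7 CPM in the shams, a change of 0.66 ± 0.09 (edgeR adjusted p = 0.000445). Rpl3l read 143, 89.9, 158 and 154 CPM and in the shams 225, 228, 239.7 and 199 CPM, a change of -0.81 ± 0.17 (edgeR adjusted p = 0.00663), and the groups did not overlap in either gene.

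Uchl1, a ubiquitin hydrolase, rose by 1.71 ± 0.16 (edgeR adjusted p = 3.89e-05) and Tubb3, a beta tubulin, by 2.53 ± 0.34 (edgeR adjusted p = 0.000493). Both are best known from nerve cells, and of 8 Schwann cell and nerve markers tested none passed (median 0.21). Fxyd6, a regulator of the sodium pump, rose by 1.42 ± 0.15 (edgeR adjusted p = 8.62e-05). Itgbl1 and Cilp, secreted proteins known from cartilage and fibrosis, rose by 2.10 ± 0.20 (edgeR adjusted p = 3.91e-05) and 3.14 ± 0.42 (edgeR adjusted p = 0.000445), and both were also higher than after reperfusion, by 1.95 ± 0.19 (edgeR adjusted p = 1.19e-05) and 2.22 ± 0.40 (edgeR adjusted p = 0.00121). Among the falls with the smallest p were Agtpbp1, an enzyme that trims tubulin tails, at -0.75 ± 0.08 (edgeR adjusted p = 0.000127), Ano10, of the anoctamin family, at -1.03 ± 0.11 (edgeR adjusted p = 0.000143), and Syt7, a calcium sensor of vesicle release, at -0.79 ± 0.10 (edgeR adjusted p = 0.000249).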
